A study of Homo sapiens with 11 samples.

Results

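The genes described here are 9 human genes of glycogen synthesis and breakdown, GYS1, GBE1, GYG1, UGP2, PGM1, PYGL, PYGB, PPP1R3B and PPP1R3C, chosen by name for their known roles and found in the table of counts by Ensembl identifier. They are 9 of the 60676 genes in the table, and all 9 were among the 19981 genes with enough counts to be tested. RNA sequencing was performed on RWPE1 cells, an immortalized line of prostate epithelial cells grown in keratinocyte serum-free medium, with 3 libraries from normoxia and 3, 3 and 2 libraries after 6, 12 and 24 h in hypoxia (1% oxygen), and a further 24 h replicate is not analysed here. The hypoxic medium was also supplemented with 10 mM HEPES, so that low oxygen and the added buffer cannot be told apart in any comparison with normoxia. All libraries came from this 1 cell line, no gene was edited and no drug was added, and the labels do not say whether replicates were separate cultures, so p-values measure only the spread between these samples.

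Glycogen is the branched store of glucose that most cells keep in the cytosol. Phosphoglucomutase and UDP-glucose pyrophosphorylase turn glucose 6-phosphate into UDP-glucose, glycogenin starts the chain, glycogen synthase lengthens it and the branching enzyme adds branches, while glycogen phosphorylase releases glucose 1-phosphate, which phosphoglucomutase returns to glycolysis. Subunits of the PPP1R3 family bring protein phosphatase 1 to the glycogen particle, where it activates the synthase and inactivates the phosphorylase. Glycogen is well known to accumulate in many cell types kept at low oxygen, but glycogen itself was not measured here, nor was any protein or enzyme activity.

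Between 27496009 and 49488345 reads were counted per library. Levels are given as counts per 1000000 (CPM) after TMM scaling, which sets libraries on a common scale from the bulk of their genes. The TMM factor was 0.539 in 24 h replicate 2, against 0.851 to 1.32 in the other 10 libraries, and the share of counts from mitochondrially encoded genes was 10.2% to 10.3% in normoxia, 4.30% to 6.78% at 6 and 12 h, 1.74% in 24 h replicate 1 and 0.369% in 24 h replicate 2, so this last library stood apart. SLC2A1, which encodes the glucose transporter GLUT1, was 3.44-, 5.12- and 8.33-fold its normoxic level at 6, 12 and 24 h, and CA9, a classical hypoxia-induced carbonic anhydrase, had log2 fold changes of 3.17, 4.40 and 5.68. All 5 basal epithelial markers examined were above 1 CPM in every group, with summed levels of 7925 to 10867 CPM in normoxia and 11421 to 20961 CPM in hypoxia, of which KRT5 made up the most. The basal markers did not move together, since TP63 was at 218 to 259 CPM in normoxia and 67.0 to 143 CPM in hypoxia, and KRT15 at 250.3 to 341 CPM and 51.7 to 164 CPM. Among 5 luminal markers KLK3 was under 1 CPM, and the summed level of the 5 was 228 to 259 CPM in normoxia and 620.3 to 1798 CPM in hypoxia. Of the 5 fibroblast markers only COL1A1 exceeded 1 CPM (27.7 to 60.5 CPM), the endothelial and leukocyte markers each summed to at most 0.506 CPM, and the skeletal muscle and hepatocyte markers to at most 1.14 and 1.37 CPM. The part of these marker and library differences in the results below was not tested.

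The first question was which glycogen genes changed when RWPE1 cells were moved from normoxia to hypoxia. GBE1, PGM1, PPP1R3C, PYGL and UGP2 were higher at all 3 hypoxic times, that is 5 of 9, where 14.8% of all tested genes were called higher at all 3 times. These are the branching enzyme, the phosphoglucomutase, a glycogen targeting subunit of protein phosphatase 1, the liver-type phosphorylase and the UDP-glucose pyrophosphorylase. PYGB, the brain-type phosphorylase, was higher only at 24 h by this test, GYG1, the glycogenin that primes the chain, was lower only at 6 h, and neither GYS1, the glycogen synthase found in most tissues, nor PPP1R3B, another targeting subunit, was called at any time. A gene was called at an adjusted p under 0.05 in edgeR's quasi-likelihood test, fitted once to all 11 libraries, with p-values adjusted by Benjamini-Hochberg over the 19981 genes.

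At 6 h, 5 members were higher and 1 was lower, against 25.1% and 27.7% of all tested genes. At 12 h, 5 were higher and 0 lower, against 24.2% and 27.1%, and DESeq2 and limma-voom also called 5 higher and 0 lower. At 24 h, 6 were higher and 0 lower, against 29.9% and 31.3%. The median log2 fold change of the 9 genes was 0.47, 0.43 and 1.04 at 6, 12 and 24 h, where the median over all tested genes was -0.0021, -0.033 and -0.065. The libraries of a hypoxic time lay wholly above or wholly below the normoxic libraries for 7 of 9 members at each time, a share close to the 69.6%, 72.3% and 73% of all tested genes. The 3 comparisons share the same normoxic libraries, and in bulk RNA fewer cells with a transcript and less of it per cell cannot be told apart.

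These directions are relative to the TMM scale. When total counts alone set the scale, the median of all tested genes moved to -0.32, -0.50 and -0.97 at 6, 12 and 24 h, and the calls among the 9 genes became 2 higher and 1 lower at 6 h, 3 higher and 1 lower at 12 h and 1 higher and 3 lower at 24 h. On that scale 13.6% of all tested genes were called higher and 35.7% lower at 6 h, 10.6% and 42.3% at 12 h, and 11.1% and 56.6% at 24 h. GBE1 and PPP1R3C remained higher at 6 and 12 h and PGM1 at 12 and 24 h on that scale, the calls of PYGL and UGP2 were lost at all 3 times, and GYS1, GYG1 and PPP1R3B were called lower at 24 h.

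**Figure D1:**
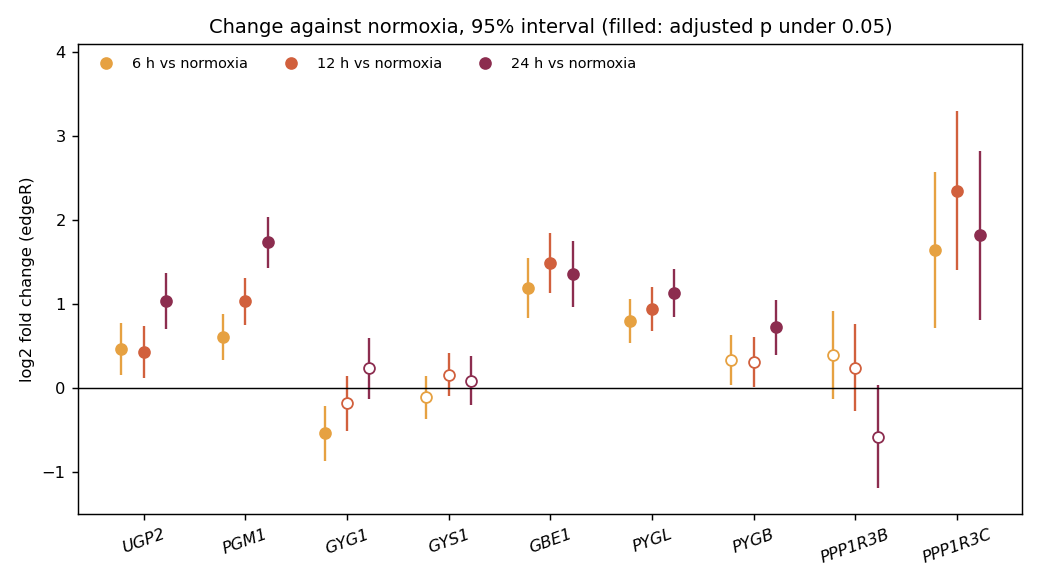
Log2 fold change of the 9 glycogen genes against normoxia at 6, 12 and 24 h (y axis, edgeR's fit on the TMM scale), with 95% intervals as bars and filled points where the adjusted p was under 0.05. PPP1R3C and GBE1 had the highest values at 6 and 12 h, PGM1 had 0.61 at 6 h and 1.74 at 24 h, and the intervals of GYS1 included 0 at each time.

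Promoters of the members were read from RefSeq's GRCh38.p14 table, as 250 bases before and 50 after each listed start, because 5 genes were higher together and hypoxia-inducible factors bind DNA at the letters ACGTG or GCGTG. These letters were searched on both strands, and overlapping matches (CACGTG holds ACGTG on both strands) were counted as 1. Of 35116 promoters in the table, 48.4% held at least 1 match, 7.54% at least 3, and 7.26% held CACGTG. The table had promoters of 8 of the 9 members, all but PPP1R3B. Shown are promoters of 4 genes that were higher at all 3 times and of GYS1, which was not called, 5′ to 3′ along each gene's own strand with the matches in capitals.
PPP1R3C (chr10:91633022-91633321, minus strand): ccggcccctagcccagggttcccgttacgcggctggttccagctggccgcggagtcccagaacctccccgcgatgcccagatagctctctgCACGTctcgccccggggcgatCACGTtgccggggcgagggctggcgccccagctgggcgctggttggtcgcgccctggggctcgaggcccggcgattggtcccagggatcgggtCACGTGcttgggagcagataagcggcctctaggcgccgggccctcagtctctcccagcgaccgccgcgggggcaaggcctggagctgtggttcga
GBE1 (chr3:81761596-81761895, minus strand): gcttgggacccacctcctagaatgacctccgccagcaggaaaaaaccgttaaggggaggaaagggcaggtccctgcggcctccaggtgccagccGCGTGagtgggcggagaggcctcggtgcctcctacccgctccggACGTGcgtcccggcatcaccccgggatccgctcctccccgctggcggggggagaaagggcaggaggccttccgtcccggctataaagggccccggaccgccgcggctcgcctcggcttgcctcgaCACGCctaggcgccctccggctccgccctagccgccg
PGM1, second of 3 listed starts (chr1:63593559-63593858, plus strand): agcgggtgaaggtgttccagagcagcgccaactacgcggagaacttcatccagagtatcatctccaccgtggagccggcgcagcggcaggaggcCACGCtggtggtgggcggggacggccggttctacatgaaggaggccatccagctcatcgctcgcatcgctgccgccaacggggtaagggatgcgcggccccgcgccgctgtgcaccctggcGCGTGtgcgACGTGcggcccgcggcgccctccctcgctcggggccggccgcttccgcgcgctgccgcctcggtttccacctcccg
PYGL (chr14:50944434-50944733, minus strand): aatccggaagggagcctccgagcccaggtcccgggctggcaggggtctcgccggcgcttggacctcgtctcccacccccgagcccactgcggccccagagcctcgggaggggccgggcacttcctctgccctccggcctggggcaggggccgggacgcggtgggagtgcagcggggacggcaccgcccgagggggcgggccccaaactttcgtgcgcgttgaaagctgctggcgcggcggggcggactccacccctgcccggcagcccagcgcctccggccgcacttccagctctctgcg
GYS1 (chr19:48993260-48993559, minus strand): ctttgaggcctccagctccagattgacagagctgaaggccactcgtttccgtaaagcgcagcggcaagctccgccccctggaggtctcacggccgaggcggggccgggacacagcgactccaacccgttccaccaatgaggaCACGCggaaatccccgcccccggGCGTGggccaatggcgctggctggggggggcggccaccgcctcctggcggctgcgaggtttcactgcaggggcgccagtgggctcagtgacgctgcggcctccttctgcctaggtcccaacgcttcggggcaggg

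The PPP1R3C promoter held 3 matches, all with the letters ACGTG and 1 of them CACGTG, beginning at positions -159, -138 and -45 from the start. GBE1 also held 3 matches, at -156, -112 and 14, of which 1 was ACGTG. The promoter shown for PGM1 held 3, at -156, -35 and -26, while its other 2 listed promoters held 0. One of these 2 (chr1:63593161-63593460) spans the start of PGM1 in the annotation used here, 63593411. The shares of all promoters given above are per promoter, not for the highest of several. The promoters of UGP2 held 2 and 1 matches. PYGL, although its RNA was higher at all 3 times, held 0 in this window, and GYS1 and PYGB, which was higher at 24 h, held 2 and 3 without any ACGTG. GYG1 held 2, of which 1 was CACGTG. A match is only a stretch of letters, and binding was not measured in these samples.

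PGM1 (ENSG00000079739, chr1:63593411-63660245, plus strand, GRCh38) encodes the phosphoglucomutase that interconverts glucose 1-phosphate and glucose 6-phosphate and so serves both synthesis and breakdown. It was measured at 32.2, 39.8 and 33.8 CPM in the normoxic libraries, 50.1, 53.1 and 58.4 CPM at 6 h, 76.3, 69.2 and 70.8 CPM at 12 h and 119.5 and 116 CPM at 24 h. No 2 of the 4 groups overlapped, and each later time lay above the one before. Of all tested genes, 69.6% to 73% did not overlap normoxia at a given time, and this share was not computed between hypoxic times. The step from 6 to 12 h was not called (0.42, adjusted p 0.0771, edgeR's quasi-likelihood test). With total counts as the scale, the steps from 6 to 12 h and from 12 to 24 h were both 0.27 and neither was called. The log2 fold change against normoxia was 0.61 (SE 0.13), 1.03 (SE 0.13) and 1.74 (SE 0.14) at 6, 12 and 24 h, with adjusted p of 0.00156, 5.15e-05 and 1.73e-06 by edgeR's quasi-likelihood test (Benjamini-Hochberg). At 24 h this was a 3.34-fold level.

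UGP2 (ENSG00000169764, chr2:63840952-63891562, plus strand) encodes the enzyme that makes UDP-glucose, the sugar donor of glycogen synthase. It was at 66.5, 73.9 and 65.98 CPM in normoxia, 102, 84.2 and 99.1 CPM at 6 h, 107, 82.3 and 88.5 CPM at 12 h and 132 and 150.4 CPM at 24 h. Every hypoxic library was above the highest normoxic library, the 6 and 12 h libraries overlapped, and both 24 h libraries were above all others. The log2 fold changes were 0.47 (SE 0.14), 0.43 (SE 0.14) and 1.04 (SE 0.16), with adjusted p of 0.0142, 0.0221 and 0.000108 by edgeR's quasi-likelihood test (Benjamini-Hochberg). The calls at 6 and 12 h were lost without normoxia replicate 1 or replicate 3, and the call at 12 h also without 12 h replicate 1, with adjusted p of up to 0.063 at 6 h and 0.0978 at 12 h when 1 library was left out. They were also lost with no filter on low counts, and the call at 12 h with at least 10 counts in every library. With total counts as the scale the calls of UGP2 at all 3 times were lost.

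**Figure D2:**
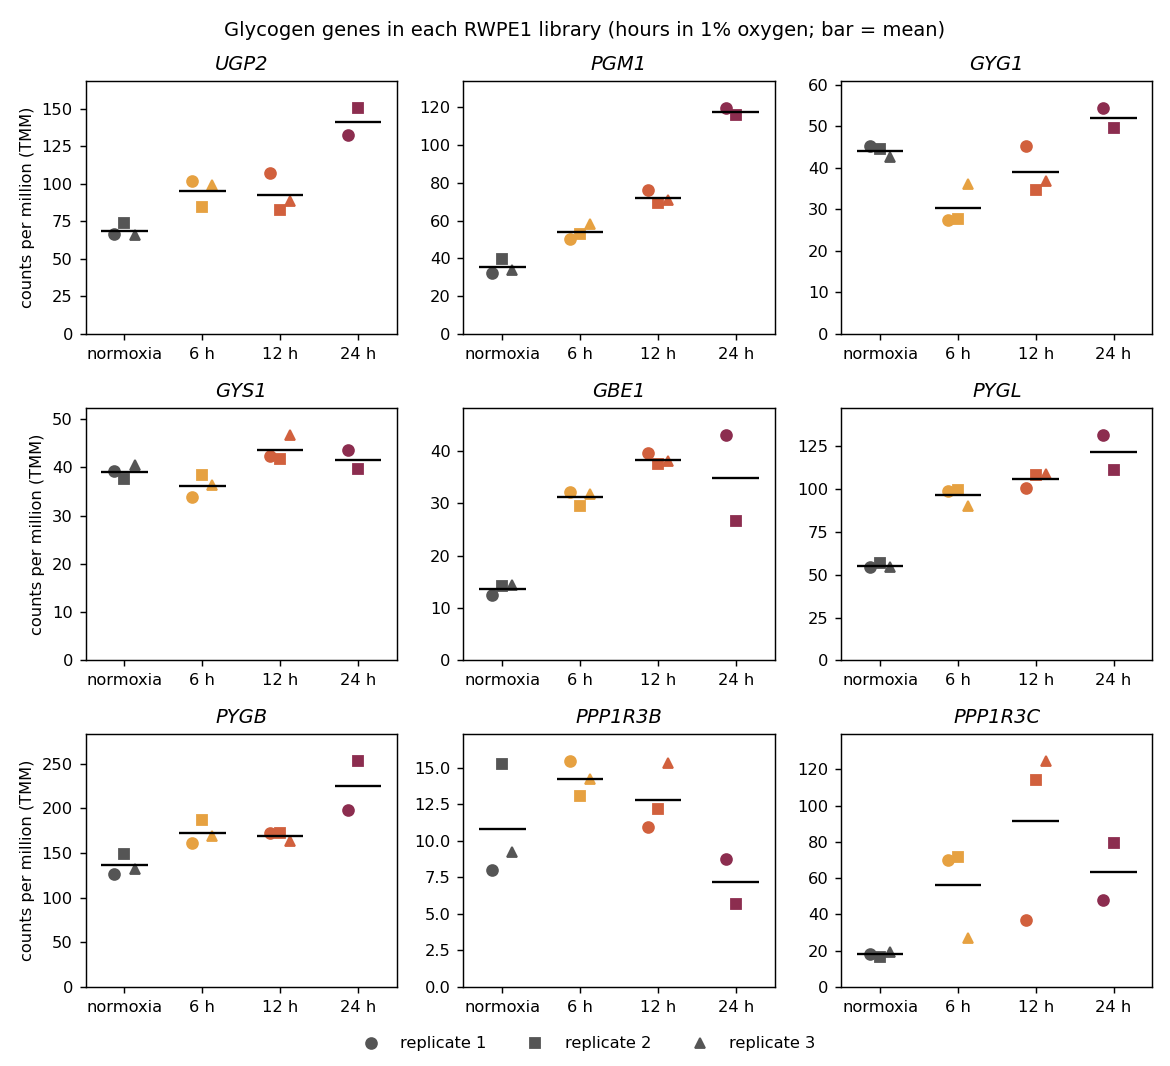
CPM on the TMM scale (y axis, from 0) of the 9 glycogen genes in each of the 11 libraries, by hours in 1% oxygen (x axis), with 1 point per library, shaped by replicate number, and a bar at the group mean. PGM1 lies higher at each later time, GBE1 and PYGL are above normoxia in every hypoxic library, and PPP1R3C is lowest among hypoxic libraries in 6 h replicate 3 and 12 h replicate 1.

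GYG1 (ENSG00000163754, chr3:148991408-149031775, plus strand), the glycogenin that carries the first glucose residues of a new chain, was the member that fell at 6 h. Its levels were 45.2, 44.5 and 42.6 CPM in normoxia, 27.4, 27.6 and 36.1 CPM at 6 h, 45.3, 34.6 and 36.7 CPM at 12 h and 54.3 and 49.6 CPM at 24 h. The 6 h libraries were all below normoxia, the 12 h libraries straddled it and both 24 h libraries were above it. The log2 fold change was -0.54 (SE 0.15) at 6 h, with an adjusted p of 0.0094 by edgeR's quasi-likelihood test (Benjamini-Hochberg), and this call was kept under all 20 alternatives. At 12 and 24 h it was -0.18 and 0.24 with adjusted p of 0.328 and 0.231, and the value at 24 h became -0.66 with total counts as the scale. Of the exonic bases of GYG1, 21.8% overlap HLTF on the other strand, and the strand setting of the counting was not stated in the sources used here. HLTF itself had a log2 fold change of 0.04 at 6 h (adjusted p 0.864).

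GYS1 (ENSG00000104812, chr19:48968130-48993310, minus strand), which encodes the synthase that lengthens the chain, was measured at 39.2, 37.6 and 40.5 CPM in normoxia, 33.8, 38.4 and 36.4 CPM at 6 h, 42.4, 41.7 and 46.8 CPM at 12 h and 43.5 and 39.7 CPM at 24 h. The 12 h libraries were all above normoxia, by little, and the 6 and 24 h libraries overlapped it. The log2 fold changes were -0.11, 0.16 and 0.09, with 95% intervals of -0.37 to 0.15, -0.10 to 0.42 and -0.20 to 0.38 on the TMM scale, so changes within these bounds cannot be told from none. With total counts as the scale the value at 24 h was -0.81 and was called lower (adjusted p 0.00506, edgeR's quasi-likelihood test), and the values at 6 and 12 h were -0.43 and -0.31.

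GBE1 (ENSG00000114480, chr3:81489703-81761645, minus strand), the enzyme that adds branches, whose promoter is shown above, was at 12.4, 14.2 and 14.3 CPM in normoxia, 32.3, 29.5 and 31.9 CPM at 6 h, 39.6, 37.5 and 38.03 CPM at 12 h and 43.1 and 26.6 CPM at 24 h. All 8 hypoxic libraries were above the 3 normoxic ones, and the 24 h pair was the widest apart, with replicate 2 the lowest hypoxic library. The log2 fold changes were 1.19 (SE 0.17), 1.49 (SE 0.17) and 1.36 (SE 0.18), with adjusted p of 8.56e-05, 2.45e-05 and 4.68e-05 by edgeR's quasi-likelihood test (Benjamini-Hochberg). This was 2.29-, 2.81- and 2.56-fold the normoxic level. The calls at 6 and 12 h were kept under all 20 alternatives, and the call at 24 h was lost with total counts as the scale, with a log2 fold change of 0.51 (adjusted p 0.129).

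The next question was whether the phosphorylases, which break glycogen down, moved with the synthetic enzymes. PYGL (ENSG00000100504, chr14:50857891-50944483, minus strand), the form that predominates in liver, was at 54.3, 56.7 and 54.5 CPM in normoxia, 98.9, 99.6 and 90.2 CPM at 6 h, 100.4, 108 and 109 CPM at 12 h and 132 and 111 CPM at 24 h. The normoxic libraries were all below the 8 hypoxic ones. The log2 fold changes were 0.80 (SE 0.12), 0.94 (SE 0.12) and 1.14 (SE 0.13), with adjusted p of 0.000149, 6.53e-05 and 1.65e-05 by edgeR's quasi-likelihood test (Benjamini-Hochberg). With total counts as the scale they were 0.48, 0.47 and 0.25 and none was called.

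PYGB (ENSG00000100994, chr20:25248085-25298012, plus strand), the form first described in brain, had the highest mean level per length of the 9 genes in every group, though at 12 h it lay above PPP1R3C in only 1 of 3 libraries. It was at 127, 149 and 132 CPM in normoxia, 161, 187 and 169 CPM at 6 h, 173, 172 and 163 CPM at 12 h and 198 and 253 CPM at 24 h. The hypoxic libraries were all above the normoxic ones, but at 6 and 12 h the differences did not pass the test, with log2 fold changes of 0.34 and 0.32 and adjusted p of 0.0522 and 0.0712 by edgeR's quasi-likelihood test (Benjamini-Hochberg). Both passed when either 24 h library was left out of the fit. At 6 h DESeq2, limma-voom with and without sample quality weights, and a fit of only the 2 groups compared also called PYGB higher. At 12 h only the weighted limma-voom fit and that of the 2 groups did so among these. At 24 h the log2 fold change was 0.73 (SE 0.15, adjusted p 0.00122), and it was -0.23 with total counts as the scale.

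Ratios of 2 genes within a library do not depend on the scale. The log2 ratio of PYGL to PYGB counts was -1.22, -1.39 and -1.28 in normoxia, -0.70, -0.91 and -0.90 at 6 h, -0.78, -0.67 and -0.59 at 12 h and -0.59 and -1.18 at 24 h. All 8 hypoxic libraries were above the 3 normoxic ones, with 24 h replicate 2 only just above. The mean was higher in hypoxia by 0.51, a 1.42-fold shift towards PYGL (exact two-sided permutation test over 8 and 3 libraries, p = 0.0121, which is the smallest that this design allows, and 0.0182 after Benjamini-Hochberg adjustment over 3 ratios). The log2 ratio of GYS1 to PYGL was -0.47, -0.59 and -0.43 in normoxia and between -1.60 and -1.21 in the 8 hypoxic libraries. It fell by 0.90 on the log2 scale in hypoxia, with groups that did not overlap (exact permutation p = 0.0121, adjusted 0.0182). Any ratio whose groups do not overlap reaches this p, and the share of all gene pairs that do so was not computed. Of single genes, 69.6% to 73% did not overlap normoxia at a given time. The hypoxic libraries of the different times were pooled in this test. Per exonic length, GYS1 was thus 0.760 ± 0.0446 (SD, n = 3) of PYGL in normoxia, 0.404 ± 0.034 (SD, n = 3) at 6 h, 0.443 ± 0.0261 (SD, n = 3) at 12 h and 0.368 ± 0.0204 (SD, n = 2) at 24 h.

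**Figure D3:**
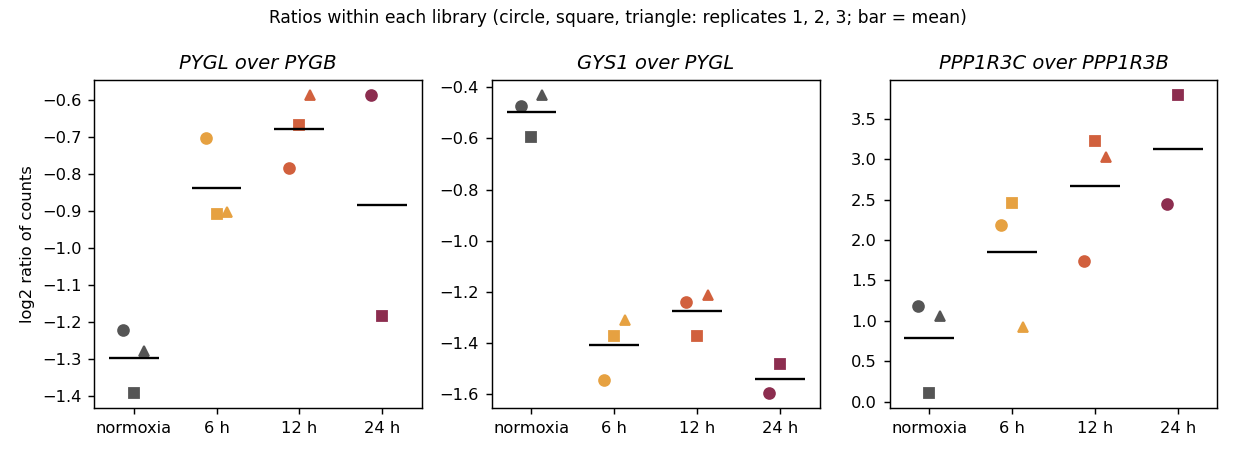
Log2 ratio of the counts of 2 genes within each library (y axis), for PYGL over PYGB, GYS1 over PYGL and PPP1R3C over PPP1R3B, by hours in 1% oxygen (x axis), with 1 point per library and a bar at the group mean. GYS1 over PYGL separates the 3 normoxic libraries from the 8 hypoxic ones by the widest margin, and PPP1R3C over PPP1R3B in 6 h replicate 3 lies among the normoxic values.

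PPP1R3C (ENSG00000119938, chr10:91628442-91633071, minus strand), also called protein targeting to glycogen, binds protein phosphatase 1 and glycogen, and its promoter, shown above, held 3 matches. It was at 18.3, 16.4 and 19.2 CPM in normoxia, 70.2, 71.9 and 26.95 CPM at 6 h, 36.8, 114 and 125 CPM at 12 h and 47.7 and 79.2 CPM at 24 h. Every hypoxic library was above normoxia, but 6 h replicate 3 and 12 h replicate 1 were far below the other libraries of their times. The log2 fold changes were 1.65 (SE 0.43), 2.35 (SE 0.44) and 1.82 (SE 0.46), with adjusted p of 0.0063, 0.000846 and 0.00462 by edgeR's quasi-likelihood test (Benjamini-Hochberg). The value at 6 h was 1.99 without 6 h replicate 3 and the value at 12 h was 2.73 without 12 h replicate 1. The lowest values with 1 library left out were 1.44 (6 h, without its replicate 2), 2.07 (12 h, without its replicate 3) and 1.39 (24 h, without its replicate 2), the last with an adjusted p of 0.0421 in edgeR's quasi-likelihood test.

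PPP1R3B (ENSG00000173281, chr8:9136255-9151574, minus strand), a targeting subunit best known from liver, was at 8.02, 15.2 and 9.21 CPM in normoxia, 15.4, 13.1 and 14.2 CPM at 6 h, 10.96, 12.1 and 15.3 CPM at 12 h and 8.73 and 5.67 CPM at 24 h. Normoxia replicate 2 lay well above the other 2 normoxic libraries, and all hypoxic groups overlapped the normoxic range. The log2 fold changes against normoxia were 0.40, 0.25 and -0.58, with adjusted p of 0.181, 0.415 and 0.0914 by edgeR's quasi-likelihood test. The log2 ratio of PPP1R3C to PPP1R3B was 1.19, 0.11 and 1.06 in normoxia, 2.18, 2.46 and 0.92 at 6 h, 1.74, 3.23 and 3.03 at 12 h and 2.45 and 3.80 at 24 h. It was higher by 1.69 in hypoxia (exact permutation test, p = 0.0364, adjusted 0.0364 over 3 ratios), but 6 h replicate 3 lay within the normoxic range, and the p was 0.0714 with the 6 and 12 h libraries alone.

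The third question was whether the 9 genes changed further between the hypoxic times. From 6 to 12 h, edgeR called 0 of 9 in either direction, where 1.88% of all tested genes were higher and 3.07% lower. At an unadjusted p under 0.05 there were 3, PGM1, GYG1 and GYS1, while DESeq2 called 1 and limma-voom 0. From 12 to 24 h PGM1 and UGP2 rose and PPP1R3B fell, against 15.1% of all tested genes higher and 13.3% lower. Their log2 fold changes were 0.71 (SE 0.14), 0.61 (SE 0.16) and -0.83 (SE 0.28), with adjusted p of 0.00447, 0.0135 and 0.0459 by edgeR's quasi-likelihood test (Benjamini-Hochberg). The call of UGP2 from 12 to 24 h was lost in 6 of 20 alternatives, among them no filter and total counts as the scale.

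The comparison of 24 h with 6 h was added after the data were seen. PGM1, UGP2 and GYG1 rose by 1.13, 0.57 and 0.77 on the log2 scale and PPP1R3B fell by 0.98, where 22.1% of all tested genes were higher and 20.3% lower. The adjusted p were 0.000131, 0.011, 0.0029 and 0.0154 in that order (edgeR's quasi-likelihood test, Benjamini-Hochberg). With total counts as the scale none of these 3 genes was called higher, UGP2 had a log2 fold change of -0.045, and PPP1R3B was still called lower. Both 24 h libraries have far smaller mitochondrial shares than the earlier ones, and the part of this in the values was not tested. The call of PPP1R3B was lost in both comparisons without 24 h replicate 2, and that of UGP2 from 12 to 24 h without 12 h replicate 2 or replicate 3.

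Levels of different genes were compared per length, in transcripts per 1000000 (TPM) within each group. The length was that of all annotated exons of a gene merged. The order therefore depends on which transcripts were made, which was not examined. In normoxia PYGB was the highest at 93.98 ± 8.97 TPM (SD, n = 3), followed by PYGL at 37.4 ± 1.41, UGP2 at 31.2 ± 2.46, GYS1 at 28.4 ± 0.619 and PGM1 at 26.6 ± 3.35. PPP1R3C at 21.7 ± 1.40, GYG1 at 17.97 ± 0.822, GBE1 at 9.02 ± 0.683 and PPP1R3B at 5.82 ± 2.15 TPM came last. The neighbours GYS1 and PGM1 overlapped between libraries, as did GBE1 and PPP1R3B, and the other neighbours did not. At 6 and 12 h PPP1R3C stood second, at 57.2 ± 26.6 and 78.3 ± 43.2 TPM (SD, n = 3), overlapping PYGL at both times and PYGB at 12 h, and GBE1 stood above GYG1 at both times without overlap. In CPM the means of GBE1 and GYG1 were 31.2 and 30.4 at 6 h and 38.4 and 38.9 at 12 h. In CPM their libraries overlapped at both times, so their separation per length rested on the lengths used, 4651 and 7551 bases. With the same lengths GYG1 stood above GBE1 in normoxia, at 17.97 against 9.02 TPM. At 24 h PYGB was again first and PPP1R3B again last, but of the 8 pairs of neighbours only UGP2 with GYS1 and GYG1 with PPP1R3B were apart in the 2 libraries.

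Over the 11 libraries, the log2 CPM of GBE1 and PYGL had a Pearson correlation of 0.950, and those of UGP2 and PGM1 one of 0.911. GYG1 and PPP1R3B had -0.668. The tested genes most like a member were ITGA5 (0.994), TYW1B and PTDSS1 for GBE1, PRMT5 (0.992), PPP2R2D and RSL1D1 for PYGL, FTH1P7 (0.989), NOMO2 and CSRP1 for PGM1, and UBE2E1 (0.990), TBPL1 and TXNL1 for UGP2. PPP1R3C was most like IL12RB2 (0.968), SRSF4 and GALNT18, PYGB most like EMP3 (0.978), LINC00623 and IMMP1L, and GYG1 most like C11orf80 (0.969), MTIF3 and CPSF3. PPP1R3B was most like FBN1 (0.962), OSBP2 and LAMA1, and GYS1, with the weakest match, PI3 (0.910) and CDKAL1. These are the highest of 17695 genes compared, over points that share 4 time groups and their depth, and are given as a description.

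To place the 9 genes among their partners, 32 other genes of glycogen metabolism were listed, of which 29 had enough counts to be tested. Of these, 10 were higher and 7 lower at 6 h, 7 and 8 at 12 h, and 10 and 9 at 24 h, with median log2 fold changes of 0.12, 0.00054 and -0.072. The shares of all tested genes called higher and lower, given above, were 25.1% and 27.7% at 6 h, 24.2% and 27.1% at 12 h, and 29.9% and 31.3% at 24 h. The list thus held genes called in both directions at each time, and its difference from the 9 members was not tested. With total counts as the scale the counts were 4 higher and 12 lower at 6 h, 2 and 10 at 12 h, and 1 and 21 at 24 h, so the balance of directions depended on the scale, as it did over all tested genes.

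Few counts fell on the isoforms of other tissues. GYS2, the liver synthase, had 2 counts in all 11 libraries together, GYG2, the second glycogenin, had 34, and PPP1R3A, the skeletal muscle targeting subunit, had 0 of 375915381 reads, which allows up to 0.00798 CPM (3 reads, counting error only). Of the exonic bases of GYS2, 85.3% overlap ENSG00000285854 on the same strand. How reads on both genes were counted is not given, so the count of GYS2 may understate its level. PYGM, the muscle phosphorylase, was at 0.531, 0.666 and 0.337 CPM in normoxia, 1.71, 2.01 and 2.01 CPM at 6 h, 2.74, 1.13 and 0.754 CPM at 12 h and 1.63 and 0.654 CPM at 24 h. It rose at 6 and 12 h by 1.90 and 1.56 on the log2 scale (adjusted p 0.00442 and 0.0152, edgeR's quasi-likelihood test) but stayed far below PYGL and PYGB. PGM2L1, a relative of PGM1 that makes glucose 1,6-bisphosphate, was higher at all 3 times, with log2 fold changes of 1.62, 1.28 and 1.49. Scaled by total counts alone, the calls of PYGM at 12 h and PGM2L1 at 24 h were lost.

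Within the PPP1R3 family of targeting subunits the directions were opposed. PPP1R3G was at 1.43, 1.49 and 1.78 CPM in normoxia, 8.61, 11.9 and 6.43 CPM at 6 h, 5.11, 11.7 and 11.4 CPM at 12 h and 6.72 and 13.3 CPM at 24 h. As for PPP1R3C, 6 h replicate 3 and 12 h replicate 1 were the lowest of their times, and all hypoxic libraries were above normoxia. PPP1R3G had log2 fold changes of 2.51, 2.58 and 2.66 (adjusted p 0.000111, 0.000123 and 9.22e-05, edgeR's quasi-likelihood test). PPP1R3E was at 7.72, 8.42 and 8.15 CPM in normoxia and at 1.04 to 2.17 CPM in the 8 hypoxic libraries, and it fell by 2.17, 2.20 and 2.91 on the log2 scale. PPP1R3D rose by 0.65 at 6 h and fell by 0.46 at 24 h (adjusted p 0.00335 and 0.0382), and PPP1R3F was not called at any time. Of the catalytic subunits, PPP1CC was higher at all 3 times, by 0.84, 0.47 and 1.31. On the scale of total counts PPP1R3G stayed higher and PPP1R3E lower at all 3 times, PPP1R3D was called only at 24 h (-1.42), PPP1R3F was called lower at 6 and 24 h (-0.77 and -1.10), and PPP1CC was called only at 6 h (0.52).

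Among the regulators, GSK3A, a kinase that inhibits glycogen synthase, was higher at all 3 times by 0.64, 0.66 and 0.54 on the log2 scale. GSK3B, the other synthase kinase listed, is given beside it and did not move with it. It was not called at 6 or 12 h (0.18 and -0.31) and was called lower at 24 h (-0.39, adjusted p 0.0499, edgeR's quasi-likelihood test). PHKB, the regulatory beta subunit of phosphorylase kinase, was lower at all 3 times, with log2 fold changes of -0.59, -0.60 and -0.86. EPM2A encodes laforin, the phosphatase that removes phosphate from glycogen, and was at 4.11, 4.02 and 4.23 CPM in normoxia against 0.888 to 1.80 CPM in hypoxia. Its log2 fold changes were -1.89, -1.75 and -1.37, with adjusted p of 1.91e-05, 4.39e-05 and 0.000456 by edgeR's quasi-likelihood test (Benjamini-Hochberg). GSK3A, PHKB and EPM2A, like PGM2L1 and PPP1CC above and SLC37A4 below, were named by the rule of a call in 1 direction at all 3 times without overlap with normoxia. Those calls and that separation were thus part of the rule and not a result. On the scale of total counts PHKB and EPM2A were still called lower at all 3 times, while GSK3A was not called at 6 or 12 h and was called lower at 24 h (-0.43). GSK3B was called lower at 12 and 24 h on that scale (-0.78 and -1.26).

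**Figure D4:**
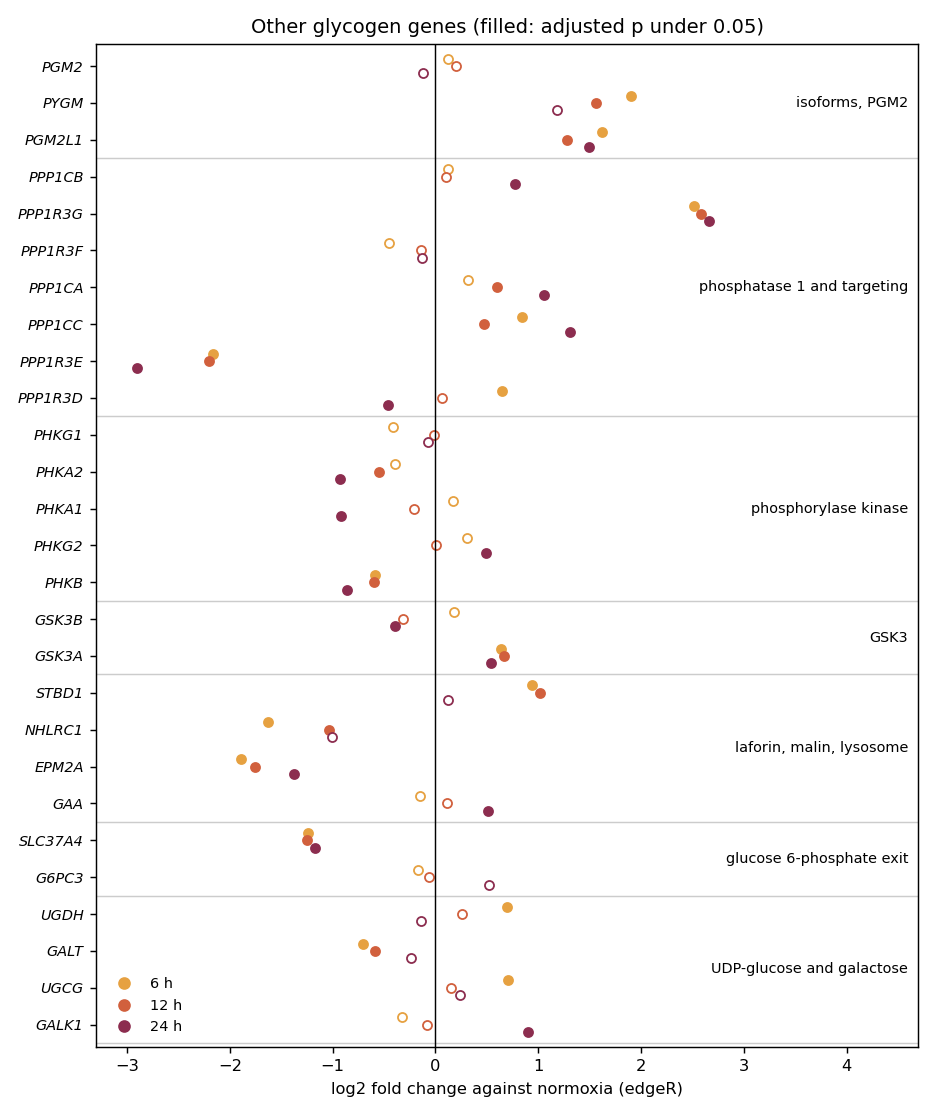
Log2 fold change against normoxia at 6, 12 and 24 h (x axis, edgeR's fit on the TMM scale) of 27 of the 29 other glycogen genes tested (y axis, grouped by role), with filled points where the adjusted p was under 0.05. PPP1R3G and PPP1R3E lie at the 2 ends, with values of 2.51 to 2.66 and -2.91 to -2.17.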

How the data were processed

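RNA longer than 200 nucleotides was isolated from RWPE1 cells, and 12 stranded libraries, built in 1 batch, were read as single ends over 75 cycles. Per the paper's methods the authors trimmed reads with Trimmomatic 0.39, aligned them with STAR to GRCh38 (Ensembl release 99) and counted them per gene with featureCounts. The deposited values are raw counts, neither filtered nor normalized, and the strand setting of the counting and the treatment of reads with several matches are not given in the sources used here. The table's 11 columns were matched to samples by time and replicate, and 0 columns were left over.

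Gene symbols, positions and exonic lengths came from GENCODE release 44 on GRCh38, which held 60357 of the 60676 identifiers. filterByExpr (minimum count 10, minimum total 15) kept 19981 genes, TMM set the scale, and edgeR 4.0.16 (R 4.3.3) fitted all 11 libraries with the time group as the only factor (glmQLFit, glmQLFTest), with Benjamini-Hochberg adjustment over the tested genes. The biological coefficient of variation was 19.6%. Log2 ratios had 0.5 counts added to each gene. Correlations used log2 CPM with a prior count of 2. The fit was tested on simulated data. Alternatives were limma-voom (limma 3.58.1) with and without sample quality weights, DESeq2 1.42.0, other scalings and filters, only the groups compared, a replicate block, and leaving out each library. Promoter sequences are RefSeq's.

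The members, gene lists and tests were chosen with earlier results of these data known. Named are the 9 members, the tissue isoforms, the PPP1R3 family, up to 8 other listed genes called in 1 direction at all 3 times without overlap, and the 3 genes most like each member. Some genes these rules reach are not reported here. Replicates shared a number but no stated batch, and were not treated as pairs. The samples are 1 cell line. Counting error weighs more for genes near 1 CPM, such as EPM2A, PPP1R3E and PYGM in some groups, and was not separated from the spread between libraries. Python 3.11.15, scipy 1.17.1 and matplotlib 3.10.9 were used.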

Additional observations from a re-analysis of the deposited data

Results flagged for a closer look

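Effects of hypoxia against the shared normoxic libraries differed between times for these genes, by a test of the difference itself in edgeR's fit. From 12 to 24 h the log2 difference was 0.71 for PGM1 (higher in 2 of 2 libraries at 24 h than in all 3 at 12 h), 0.61 for UGP2 (2 of 2) and -0.83 for PPP1R3B (lower in 2 of 2). From 6 to 24 h it was 1.13 for PGM1, 0.57 for UGP2, 0.77 for GYG1 and -0.98 for PPP1R3B, again with both 24 h libraries beyond all 3 at 6 h. These genes were listed because they were called, so the separation of their libraries is no further support. Its share over all tested genes was not computed between hypoxic times. GYG1 was below normoxia in 3 of 3 libraries at 6 h and above it in 2 of 2 at 24 h. The call of PPP1R3B from 12 to 24 h was kept in 8 of 20 alternatives and that of PGM1 from 6 to 24 h in 19 of 20.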

How the results depend on the processing

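Among 1080 values of single genes under 20 alternatives each, 961 kept their direction and their side of the threshold, 47 lost a call, 43 gained one and 29 changed sign, and most of these 29 (17) came from total counts as the scale. With that scale the number of glycogen genes called was 3 in place of 6 at 6 h, 1 in place of 3 from 12 to 24 h and 1 in place of 4 from 6 to 24 h. The sign changes against normoxia were GYS1 -0.31 and PYGB -0.15, PPP1R3B -0.23 and UGP2 -0.043 at 12 h, and GYS1 -0.81, GYG1 -0.66 and PYGB -0.23 at 24 h. From 12 to 24 h they were GYG1 -0.0067, PYGL -0.22 and PYGB -0.074, from 6 to 24 h GYS1 -0.38, GBE1 -0.36, UGP2 -0.045, PYGL -0.23, PYGB -0.25 and PPP1R3C -0.50, and from 6 to 12 h PYGL -0.010. GYS1 at 24 h was -0.022 with no filter and -0.054 with at least 10 counts in every library, and PPP1R3B from 6 to 12 h was 0.011 with sample quality weights.

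limma-voom with sample quality weights called 9 genes in place of 5 at 12 h, 4 in place of 0 from 6 to 12 h, 0 in place of 3 from 12 to 24 h and 1 in place of 4 from 6 to 24 h, while its calls over all tested genes were 74.6% in place of 51.2%, 22.5% in place of 4.95%, 5.47% in place of 28.4% and 12.7% in place of 42.4%. From 6 to 12 h DESeq2, no filter and only the 2 groups compared each called 1. From 12 to 24 h DESeq2 called 5 and only the 2 groups compared 0, where the latter called 0 of all 17807 genes, and from 6 to 24 h the latter called 2 (22.1% of all genes). The cause was not tested. With 1 library left out, counts ran from 0 to 2 from 6 to 12 h (2 without 24 h replicate 2) and from 1 to 5 from 12 to 24 h (1 without 12 h replicate 2 or 3, 5 without 24 h replicate 1). Sign changes then lay in ranges of -0.032 to 0.13 for GYS1 at 24 h, -0.55 to 0.15 for GBE1 from 12 to 24 h, -0.26 to 0.46 for GBE1 from 6 to 24 h, -0.15 to 0.036 for UGP2 and -0.073 to 0.035 for PYGB from 6 to 12 h, and -0.23 to 0.47 for PPP1R3C from 6 to 24 h. Where 1 library remained at 24 h, it was assumed to vary like the other groups.

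The ratio of PPP1R3C to PPP1R3B was higher in hypoxia by 1.48 with the 6 and 12 h libraries alone (exact permutation p = 0.0714) and by 1.35 to 1.91 without 1 library, with a p under 0.05 only without 6 h replicate 3. The other 2 ratios had an unadjusted p under 0.05 in every alternative, but without any 1 normoxic library it was 0.0444, or 0.0667 adjusted over the 3 ratios. With the replicate block edgeR called 6, 5 and 6 genes at 6, 12 and 24 h, 0 from 6 to 12 h, 2 from 12 to 24 h and 4 from 6 to 24 h. Correlations of deviations from the group means ran from -0.156 to 0.207 for same-numbered libraries and from -0.271 to 0.283 for other pairs. Such deviations sum to 0 within groups of 2 or 3, so this check cannot settle whether the numbers pair the samples. Only 2 libraries at 24 h limit the precision there.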

Other observations

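SLC37A4, which carries glucose 6-phosphate into the endoplasmic reticulum, was measured at 19.96 to 22.9 CPM in normoxia and 6.93 to 11.2 CPM in the 8 hypoxic libraries, and its log2 fold change was -1.24 at 6 h, -1.25 at 12 h and -1.17 at 24 h. G6PC3, a phosphatase of the endoplasmic reticulum, was not called against normoxia at any time on the TMM scale, but was called lower at all 3 times with total counts as the scale (-0.49, -0.53 and -0.48), and it was called higher from 6 to 24 h by 0.69. SLC37A4 was called lower at all 3 times by edgeR's quasi-likelihood test (Benjamini-Hochberg). It was named by the rule of such calls without overlap with normoxia, so its calls and its separation are no further support. Of the exonic bases of SLC37A4, 13.3% overlap TRAPPC4 on the other strand.

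The following 2 genes were named after their values were seen. UGDH, which oxidizes UDP-glucose to UDP-glucuronic acid, and UGCG, which attaches glucose from UDP-glucose to ceramide, were higher at 6 h by 0.69 and 0.71 on the log2 scale (adjusted p 0.00273 and 0.000298, edgeR's quasi-likelihood test) and not called at 12 or 24 h, while from 6 to 24 h they fell by 0.83 and 0.47. With total counts as the scale neither was called at 6 h, and both were called lower at 24 h (-1.02 and -0.68). UGP2, which makes their substrate, was called higher at all 3 times on the TMM scale and at none with total counts.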
